A study of Mus musculus with 8 samples.

Results

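Cebpb and Cebpd, the genes of the transcription factors C/EBPβ and C/EBPδ, were followed through 4 lists of chromatin loops. The lists come from H3K27ac HiChIP of HPC-7, a mouse line of haematopoietic progenitors. Both genes were fixed by name, and they are 2 of the 21757 protein-coding genes with a canonical start site in the GENCODE annotation of GRCm39. A loop is a pair of bins of 5 kb that the loop caller listed with a q-value under 0.01. Loops with an end in the start-site bin of Cebpb or Cebpd were taken as promoter loops, and loops joining other bins, both within 150 kb of that bin, were taken as nearby loops. Together these were 113 of 80489 loops in the list p30 UT and 192 of 94609 in p30 LPS, against 306 of 158233 in p42 UT and 195 of 78591 in p42 LPS. Of them, 108, 184, 283 and 185 belonged to Cebpb, and 5, 8, 23 and 10 to Cebpd. Wherever 4 values follow each other without a list name, they stand in this order: untreated p30, p30 with LPS, untreated p42, p42 with LPS.

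In HiChIP, chromatin bound by an antibody is enriched and DNA ends that are near each other in the nucleus are ligated. In the protocol used here the antibody was added before the ligation. H3K27ac, its target, marks the chromatin of promoters and enhancers in use. The HPC-7 cells had been made to express either p42, the full-length form of CEBPA, or p30, its N-terminally shortened form. Each was left untreated (UT) or was given LPS, the bacterial ligand of TLR4, for 2 h at 100 ng/mL. There were 8 libraries, 2 per group, and 1 list per group, so that the spread between replicates could not be measured and every difference below compares lists, not conditions. All groups grew with SCF. The study's methods describe transduced, GFP-sorted cells, with constitutive forms of CEBPA and with forms fused to ERT2 and switched on by tamoxifen. The labels do not say which was used here. These samples hold no group without introduced CEBPA, so that p42 and p30 can be compared with each other alone.

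C/EBPβ and C/EBPδ are basic leucine zipper proteins of the same family as CEBPA. They bind DNA as dimers at related sequences, and C/EBPβ also pairs with ATF4 at composite sites. In myeloid cells both genes belong to the early response to bacterial products and to cytokines, downstream of NF-kB, STAT3 and CREB. C/EBPβ drives emergency granulopoiesis, and both proteins act on genes of cytokines and acute phase proteins. AP-1 is a neighbouring family of leucine zipper dimers made of FOS and JUN proteins.

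The list p42 UT stood apart from the others. It held more loops than any other list, and it also had the most contacts in the caller's model. These contacts numbered 17976716 untreated and 14503330 with LPS in p30 cells, and 18999991 untreated and 15831583 with LPS in p42 cells. Bins with an H3K27ac peak had 2406, 2239, 2911 and 1939 reads on average. The promoter loops of Cebpb and Cebpd are therefore counted in the lists as deposited and in lists of equal size, which keep the 78591 loops of each list with the smallest q-values. Other counts are of the lists as deposited unless equal size is named. The part of these differences between lists in the results was not tested. All 8 of 8 progenitor markers, Kit, Gata2 and Tal1 among them, had a peak in the start-site bin in all 4 lists. Neither of the 2 T cell markers and neither of the 2 fibroblast markers had a loop in any list, whereas Adgre1, 1 of 3 macrophage markers, and Cd79a, 1 of 2 B cell markers, had a peak in all 4.

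Cebpb (ENSMUSG00000056501.4) lies on the plus strand of chromosome 2, from 167530835 to 167532338 in GRCm39, and its start site falls in the bin chr2:167530001-167535000. Cebpd (ENSMUSG00000071637.6) lies on the plus strand of chromosome 16, from 15705150 to 15708895, and its start site falls only 149 bases inside the bin chr16:15705001-15710000. No other protein-coding gene has its canonical start site in either bin.

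The promoter of Cebpb is shown because every promoter loop of the gene is anchored in its bin. The sequence is from RefSeq (table of build GRCm38.p6, plus strand) and was found at a single place of chromosome 2 in GRCm39, chr2:167530585-167530884, with the same start site. It covers 250 bases before and 50 bases after the start. Of both members, 1 was found in the table. Capitals mark the matches to TGACG, the half-site of CREB and ATF proteins, and to TATAAA, the TATA box.
Cebpb: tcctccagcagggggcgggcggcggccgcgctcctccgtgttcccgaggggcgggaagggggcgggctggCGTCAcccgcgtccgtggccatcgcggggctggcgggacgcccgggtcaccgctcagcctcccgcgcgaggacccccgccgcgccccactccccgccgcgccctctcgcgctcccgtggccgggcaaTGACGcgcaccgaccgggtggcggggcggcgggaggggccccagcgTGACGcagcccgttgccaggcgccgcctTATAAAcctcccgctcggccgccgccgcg
The window has a GC content of 80.7% and holds 50 CG pairs. TGACG was matched at 3 places on either strand, the nearest beginning 7 bases before the start, and 20.9% of 32544 RefSeq promoters of the same length hold this motif. TATAAA was matched 21 bases after the annotated start, and 13.6% of promoters hold it. The window has no match to TTGCGNAA (C/EBP), TGATGNAAT (the C/EBP-ATF composite site) or TGANTCA (AP-1), which are held by 0.805%, 0.956% and 7.79% of promoters, nor to CCAAT, which is held by 37.4%. Outside this window, the start-site bin holds 1 match to the C/EBP-ATF letters, at chr2:167532029-167532037, and 2 to the AP-1 letters, at chr2:167530210-167530216 and chr2:167532575-167532581. All motifs were searched on both strands and do not overlap here.

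In the distal bins, matches to the C/EBP, C/EBP-ATF and AP-1 letters are shown for some of those that carry the results below. The bin 20 kb downstream of Cebpb had the highest coverage ratio around the gene between p42 UT and p30 UT, the bins 200 and 205 kb downstream were listed as partners of the promoter in all 4 lists, and the bin 185 kb downstream of Cebpd had the highest coverage ratio around that gene. Capitals mark the match to the motif named, within 30 bases of GRCm39, written on the strand of the motif.
Cebpb, 20 kb, C/EBP (chr2:167552660-167552689, plus strand): cgctggggtggTTGCGAAAgccctttctct
Cebpb, 20 kb, AP-1 (chr2:167550505-167550534): gcagctctgagTGAATCAcccatgagtcct
Cebpb, 200 kb, AP-1 (chr2:167733012-167733041): tcttgcaaaacTGAATCAgaaacaatgatc
Cebpb, 200 kb, AP-1 (chr2:167733148-167733177): aagtgggaaacTGAGTCAggcgtggggctc
Cebpb, 200 kb, AP-1 (chr2:167733236-167733265): cagtgagatccTGACTCAaaacaccaaaac
Cebpb, 205 kb, C/EBP (chr2:167737227-167737256, minus strand): cgggtgggcatTTGCGGAAcgatactgcgg
Cebpb, 205 kb, AP-1 (chr2:167736926-167736955): cttcgtgtgtcTGACTCAgtccgaggtgga
Cebpd, 185 kb, C/EBP-ATF (chr16:15891367-15891396, plus strand): atccaaatcaTGATGAAATagccagttagt
A match to the C/EBP letters is held by 5.17% of the 64985 peak bins of the 4 lists, one to the C/EBP-ATF letters by 16%, and one to the AP-1 letters by 77.4%. Of the bins searched, the bins 20 and 205 kb downstream of Cebpb are the ones with a C/EBP match. Other partner bins in all 4 lists are not shown. Those at 50, 55, 70, 85 and 195 kb of Cebpb and 215 kb of Cebpd hold AP-1 matches. Those at 65 kb of Cebpb and at 210 and 260 kb of Cebpd hold no match to the C/EBP, C/EBP-ATF or AP-1 letters.

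Cebpb was among the most connected promoters of each list. Its promoter loops numbered 13 untreated and 21 with LPS in p30 cells, and 33 untreated and 21 with LPS in p42 cells, whereas the median over genes with any promoter loop was 3, 3, 5 and 3. Of these genes with loops, 5.22%, 1.77%, 0.451% and 0.720% had at least as many as Cebpb. They came to 13, 17, 20 and 21 in lists of equal size, so that both p42 lists and p30 LPS lay above p30 UT and the excess of p42 UT over p42 LPS was gone.

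Cebpd had fewer loops, with 5 untreated and 7 with LPS in p30 cells, and 20 untreated and 7 with LPS in p42 cells. They were 5, 6, 13 and 7 in lists of equal size. For Cebpd, p42 UT was therefore above the other 3 lists under either count. Its start site lies close to a bin border, and when the bin on each side was added, the numbers were 7, 10, 32 and 13.

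**Figure D1:**
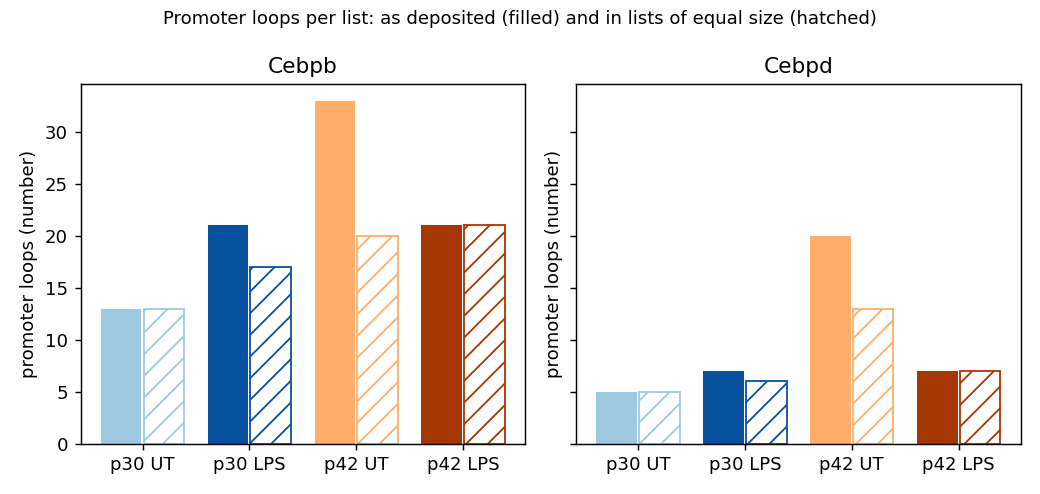
Number of promoter loops (vertical axis) of Cebpb and Cebpd in each of the 4 lists, as deposited (filled bars) and in lists of equal size (hatched bars). Cebpb reaches 33 loops in p42 UT as deposited and 20 in the list of equal size, and Cebpd reaches 20 and 13.

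The promoter loops of Cebpb all pointed the same way. Over the 4 lists they reached 40 partner bins, all 40 downstream of the gene and between 10 and 235 kb away, and none lay upstream, where the genes Peds1, Ube2v1 and Snai1 start. No partner bin held the start site of a protein-coding gene. Of the 40 bins, 13 were intergenic, and the others overlapped long non-coding RNA genes such as A530013C23Rik, 9230111E07Rik and Gm33033. Partner bins in all 4 lists numbered 8. They formed a group 50 to 85 kb away (at 50, 55, 65, 70 and 85 kb) and a group 195 to 205 kb away (at 195, 200 and 205 kb). A further 16 bins were in 1 list alone, 11 of them in p42 UT, 4 in p30 LPS, 1 in p30 UT and 0 in p42 LPS. The 11 are 33.3% of the 33 p42 UT loops, and over all loops of that list 38.9% were in no other. For p30 UT, p30 LPS and p42 LPS the shares were 7.69%, 19.0% and 0%, against 18.6%, 20.1% and 16.3% of all loops. In lists of equal size, 5 of 20 p42 UT loops were in that list alone, or 25%, against 20.3% of all its loops.

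Contacts of single loops were compared next. A loop in more cells and a more frequent loop per cell cannot be told apart in such pools. The bin 65 kb away had 18 contacts with the promoter untreated and 21 with LPS in p30 cells, and 38 untreated and 37 with LPS in p42 cells. The bin 50 kb away had 16, 18, 31 and 30 contacts, and the bin 70 kb away 14, 17, 31 and 27. In these 3 bins both p42 lists were above both p30 lists, as they were in 6 of the 8 bins in all 4 lists, the others being those at 195 and 205 kb. At 195 kb the contacts were 10, 17, 17 and 13.

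At 205 kb, the contacts were 14 untreated and 26 with LPS in p30 cells, and 28 untreated and 24 with LPS in p42 cells, so that here p30 UT was the low list. The ratio of observed to expected contacts there was 8.95, 16.9, 15.8 and 14.4, with p30 LPS the highest, as it was when contacts were scaled by modelled contacts. At 200 kb the contacts were 15, 20, 33 and 26. The counts at 200 kb stood far above what the caller expected, with a ratio of observed to expected contacts of 11, 15, 22.3 and 17.7. Of all listed loops spanning 195 to 260 kb, 12.5%, 4.07%, 1.07% and 1.86% reached the ratio of the 200 kb loop, against a median ratio of 7.07, 6.89, 6.59 and 7.04.

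Other loops differed between lists by presence. The loop to the bin at 10 kb was listed in p42 UT alone, with 97 contacts, and the loops to the bins at 20, 45 and 145 kb were listed in both p42 lists and in neither p30 list. These are 7.5% of the 40 partner bins, against 5.53% of all 214313 distinct loops. The loop to 20 kb had 53 contacts untreated and 36 with LPS. How many contacts a pair had in a list that leaves it out is not known, since the caller lists significant pairs alone.

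**Figure D2:**
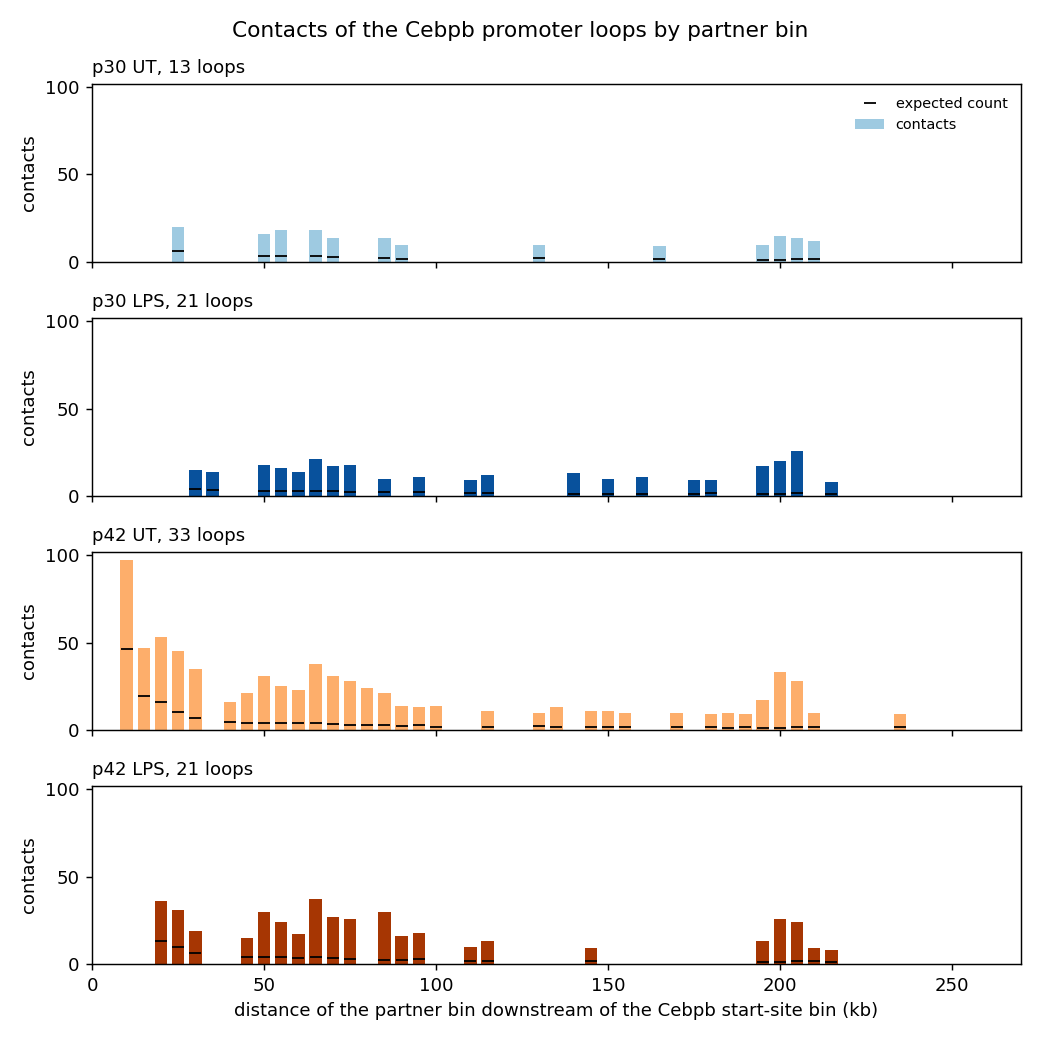
Contacts (vertical axis, number of ligation products) of each Cebpb promoter loop against the distance of its partner bin downstream (horizontal axis, kb), 1 panel per list, with the caller's expected count as a black mark. Groups of partner bins at 50 to 85 kb and 195 to 205 kb recur in all 4 lists, and p42 UT fills more of the bins from 10 to 45 kb than any other list.

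Cebpd had 21 partner bins, all 21 downstream and between 10 and 260 kb away. Of these, 20 lay in Spidr, a gene of DNA repair on the opposite strand whose body fills the region downstream of Cebpd. The bin of the Spidr start site itself, at 255 kb, was a partner in p42 UT alone, with 15 contacts. Partner bins in all 4 lists numbered 3, at 210, 215 and 260 kb, and 12 bins were in 1 list alone, 11 of them in p42 UT and 1 in p30 LPS. The 11 are 55.0% of the p42 UT loops of Cebpd, against 38.9% of all loops of that list. In lists of equal size, 4 of 13 were in p42 UT alone, or 30.8%, against 20.3%.

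At 210 kb, the Cebpd loop had 16 contacts untreated and 11 with LPS in p30 cells, and 35 untreated and 13 with LPS in p42 cells. At 215 kb the counts were 20, 12, 33 and 27, and at 260 kb they were 8, 11, 19 and 9. In each of the 3 bins p42 UT was the highest list, and p42 LPS was above p30 LPS in the bins at 210 and 215 kb. The ratio of observed to expected contacts at 210 kb was 12.3, 8.63, 24.3 and 10.2, and of all listed loops spanning 195 to 260 kb, 8.21%, 25.5%, 0.799% and 14.4% were as high. The shortest loop, to 10 kb, had 40 contacts in untreated p30, 83 in untreated p42 and 40 in p42 with LPS, and was missing from p30 LPS.

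**Figure D3:**
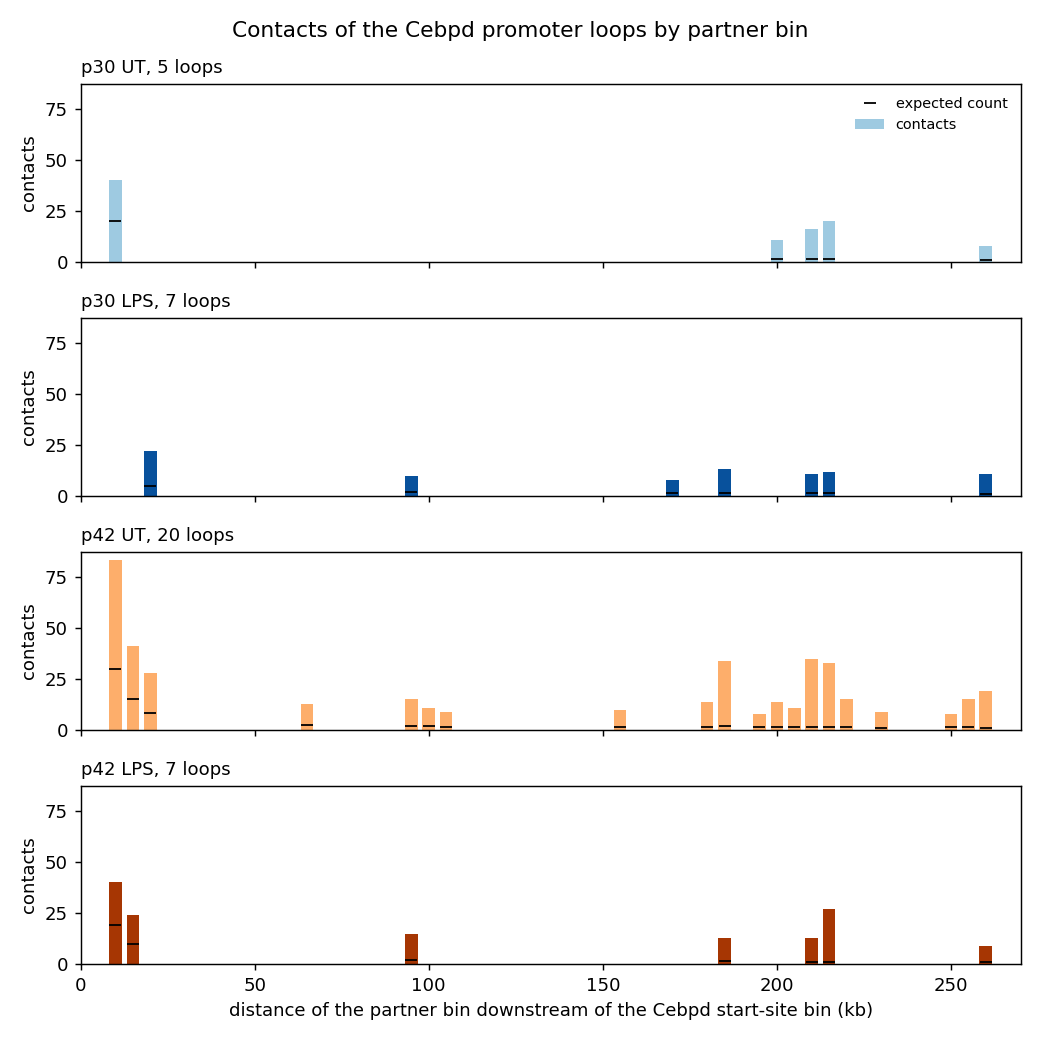
Contacts (vertical axis, number of ligation products) of each Cebpd promoter loop against the distance of its partner bin downstream (horizontal axis, kb), 1 panel per list, with the caller's expected count as a black mark. The partner bins at 210, 215 and 260 kb recur in all 4 lists, and p42 UT has the most contacts in each.

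Coverage, the number of HiChIP reads in a bin, was also compared, since it counts the reads of the bin itself and not those of a pair. The Cebpb start-site bin had 2769 reads untreated and 2594 with LPS in p30 cells, and 4623 untreated and 3398 with LPS in p42 cells. Relative to the mean of all peak bins of its list, this was 1.15, 1.16, 1.59 and 1.75, so that both p42 lists lay above both p30 lists. The Cebpd start-site bin had 3221, 2791, 5267 and 2359 reads, or 1.34, 1.25, 1.81 and 1.22 times the mean of peak bins, with p42 UT alone above the rest.

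The highest coverage ratios of p42 over p30 lay away from the promoters, among the bins compared around both genes. The bin 20 kb downstream of Cebpb, in an intron of A530013C23Rik, had 3763 reads untreated and 3692 with LPS in p30 cells, and 12629 untreated and 7593 with LPS in p42 cells. Set against the median ratio of all peak bins, it was 2.84-fold higher in p42 UT than in p30 UT, a ratio that 0.122% of 41107 peak bins reached, and 2.38-fold higher in p42 LPS than in p30 LPS, which 0.211% of 36445 reached. The adjoining bin at 25 kb was 2.22-fold and 2.06-fold higher. The bins at 20 and 25 kb were singled out after their values were seen. Over all bins compared downstream of Cebpb, 35 of 42 untreated and 40 of 40 under LPS were above the median ratio of all peak bins, with medians of 1.20 and 1.22. Upstream, 3 of 15 and 7 of 16 were above it, with medians of 0.962 and 0.998 and ranges of 0.701 to 1.37 and 0.835 to 1.45.

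Around Cebpd, the bin 185 kb downstream, in an intron of Spidr, had 3258 reads untreated and 4242 with LPS in p30 cells, and 12257 untreated and 6035 with LPS in p42 cells. It was 3.18-fold higher in p42 UT than in p30 UT by the same measure, which 0.0584% of peak bins reached, and 1.64-fold higher in p42 LPS than in p30 LPS, which 2.16% reached. Its loop to the Cebpd promoter was absent from p30 UT and had 13 contacts in p30 with LPS, 34 in untreated p42 and 13 in p42 with LPS. This bin, too, was chosen after its values were seen.

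With LPS, other bins differed. The highest ratio around Cebpb was that of the bin 220 kb downstream in both forms of CEBPA. It went from 1886 to 2846 reads in p30 cells, 1.65-fold over the median ratio, which 1.29% of 37092 peak bins reached, and from 2692 to 2865 reads in p42 cells, 1.59-fold over the median ratio, which 0.926% of 40939 reached. The bin at 65 kb, a partner of the promoter in all 4 lists, went from 8086 to 11498 reads in p30 cells (1.55-fold) and from 15249 to 11555 in p42 cells (1.13-fold, since most peak bins had fewer reads in p42 LPS than in p42 UT). These bins were chosen after their values were seen. The Cebpd start-site bin went from 5267 to 2359 reads in p42 cells, 0.670 times the median ratio, and 1.28% of peak bins were as low.

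**Figure D4:**
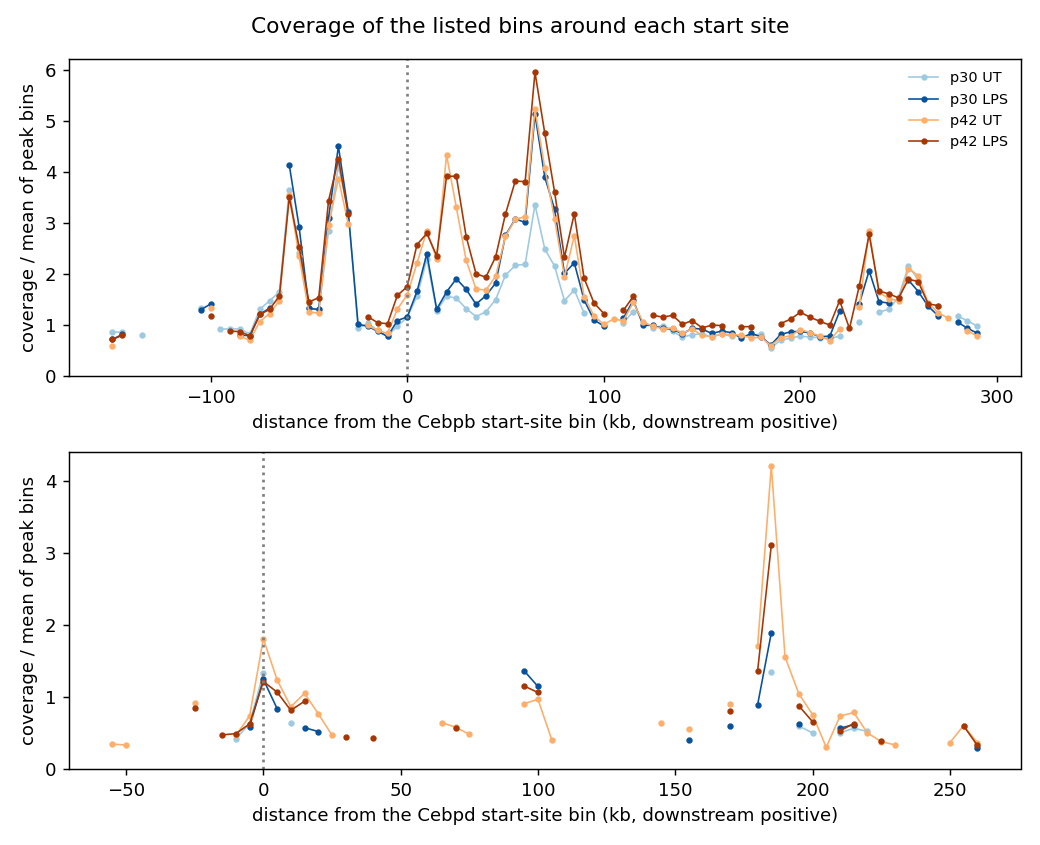
Coverage of the bins that occur in the lists, over the mean of all peak bins of the same list (vertical axis), against the distance from the start-site bin of Cebpb (top) and Cebpd (bottom) in kb, with 1 colour per list and lines joining adjoining bins. The p42 lists stand above the p30 lists at 20 and 25 kb downstream of Cebpb and at 185 kb downstream of Cebpd.

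Whether the introduced form of CEBPA went with a difference in contacts was asked first in untreated cells. Over the 12 Cebpb promoter loops present in both lists, p42 UT had 303 contacts and p30 UT 171, a share of 63.9% for p42 UT (95% Wilson interval 59.5 to 68.1%). The share of modelled contacts was 51.4%. The contact ratio, corrected for modelled contacts, was 1.68 (1.39 to 2.02). For Cebpd, 5 loops had 184 and 95 contacts, a contact ratio of 1.83 (1.43 to 2.35). Intervals here and below cover counting error only. When the expected counts, which take bin coverage into account, replaced the modelled contacts, the ratios were 1.35 (1.12 to 1.62) for Cebpb and 1.38 (1.08 to 1.77) for Cebpd.

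Loop by loop, 10 of the 12 Cebpb promoter loops were above the share of modelled contacts, with a median log2 ratio of 0.78, while over all 59069 loops in both lists 68.7% were above and the median was 0.20. None of the 12 passed the two-sided exact binomial test after Benjamini-Hochberg adjustment over all loops (0 higher in either list), and 4 had an unadjusted p under 0.05, as did 14.8% of all loops. Of all loops, 5.02% were called higher in p42 UT and 0.0677% higher in p30 UT. For Cebpd, 1 of 5 promoter loops was called, the one to 10 kb, higher in p42 UT (83 against 40 contacts, adjusted p = 0.0134 by the exact test). It spans under 20 kb and so was not tested with a minimum of 20 kb. With that minimum, 0 of 4 Cebpd loops were called, against 2.25% of all loops.

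Among 82 nearby loops around Cebpb in both lists, 19 were called higher in p42 UT and 0 higher in p30 UT, against 5.02% and 0.0677% of all loops. All 19 joined 2 bins downstream of the gene, and 13 of them had an end in the bin at 20 or 25 kb, as did 22 of the 82 tested. These bins had been singled out above by their coverage, so that the 13 are not separate support. The smallest adjusted p of the exact test was 8.05e-07, for the loop between the bins at 10 and 20 kb, which had 166 contacts in p42 UT and 69 in p30 UT. The loop between the bins at 20 and 65 kb had 66 and 20 contacts (adjusted p = 0.000216, exact test). With expected counts in place of modelled contacts, 0 of the nearby and promoter loops of either gene were called, against 0.406% of all loops. Of the 19 loops, 11 span under 20 kb, and with a minimum of 20 kb 7 of 76 nearby and promoter loops of Cebpb were called, against 2.25% of all loops. No nearby loop of Cebpd, promoter loops aside, was in both lists.

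Under LPS, the contact ratios of p42 over p30 by modelled contacts were nearer to 1 for both genes than untreated. The median log2 ratio over all loops in both lists was lower under LPS as well, at -0.13 against 0.20 untreated. Whether these genes moved beyond that shift was not tested. Cebpb had 322 contacts in p42 LPS and 232 in p30 LPS over 15 loops, a contact ratio of 1.27 (1.07 to 1.5), and 1.09 (0.918 to 1.29) with expected counts. Cebpd had 77 and 57 contacts over 5 loops, a ratio of 1.24 (0.880 to 1.74), an interval that includes equality and also a difference of more than 1.5 times. With expected counts the Cebpd ratio was 1.32 (0.942 to 1.86), close to the 1.38 of untreated cells. Of the Cebpb loops, 11 of 15 were above the share of modelled contacts, against 34.7% of all 46110 loops. By the exact binomial test with adjustment, 0 promoter loops of either gene were called, 1 of each had an unadjusted p under 0.05, as did 9.56% of all loops, and of all loops 0.213% were called higher in p42 LPS and 1.37% higher in p30 LPS. The single unadjusted Cebpb loop was that to 85 kb, with 30 contacts in p42 LPS and 10 in p30 LPS. Of 102 nearby loops of Cebpb, 1 was called, between the bins at 25 and 55 kb, higher in p42 LPS (48 against 18 contacts, adjusted p = 0.0499, exact test). With expected counts or with a minimum of 20 kb, 0 were called, against 0.0412% and 0.379% of all loops.

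LPS and untreated lists were then compared within each form of CEBPA. In p30 cells, the 8 Cebpb promoter loops in both lists had 145 contacts with LPS and 119 without, a contact ratio of 1.51 (1.19 to 1.92). The ratio was 1.29 (1.01 to 1.64) with expected counts. For Cebpd, 34 and 44 contacts over 3 loops gave 0.958 (0.614 to 1.49). Of the 8 Cebpb loops, 7 were above the share of modelled contacts, with a median log2 ratio of 0.56, and of the 3 Cebpd loops 1 was, with a median of -0.23. Over all loops in both lists, 73.4% were above it and the median was 0.22. The exact test with adjustment called 0 promoter loops of either gene, with 1 of 8 Cebpb loops and 0 of 3 Cebpd loops at an unadjusted p under 0.05, as were 11.2% of all loops. Of all 47004 loops, 2.17% were called higher in p30 LPS and 0.0234% higher in p30 UT. Of 71 nearby loops of Cebpb, 2 were called higher with LPS, between the bins at 65 and 75 kb (119 against 81 contacts, adjusted p = 0.00453, exact test) and at 75 and 85 kb (102 against 64, adjusted p = 0.00267, exact test). Both span under 20 kb, so that a minimum of 20 kb leaves them out. With expected counts 0 were called, against 0.0532% of all loops.

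In p42 cells, the ratio was near 1 for Cebpb and below 1 for Cebpd. For Cebpb, 420 contacts with LPS and 488 without over 19 loops gave a contact ratio of 1.03 (0.907 to 1.18). For Cebpd, 141 and 260 contacts over 7 loops gave 0.651 (0.530 to 0.799), and 0.804 (0.655 to 0.987) with expected counts. Of the 7 Cebpd loops, 6 were below the share of modelled contacts, with a median log2 ratio of -0.79, against -0.13 over all 59847 loops. After adjustment the exact test called 0 of the promoter loops of either gene, with 0 of 19 Cebpb loops and 3 of 7 Cebpd loops (to 10, 185 and 210 kb) at an unadjusted p under 0.05, as were 10.1% of all loops. Among all loops, 0.0384% were called higher in p42 LPS and 1.43% higher in p42 UT. None of 146 nearby loops of Cebpb was called by the exact test (0 in either direction, 3 at an unadjusted p under 0.05). The lists p42 UT and p30 UT each enter 2 of the 4 comparisons, and so do both LPS lists.

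**Figure D5:**
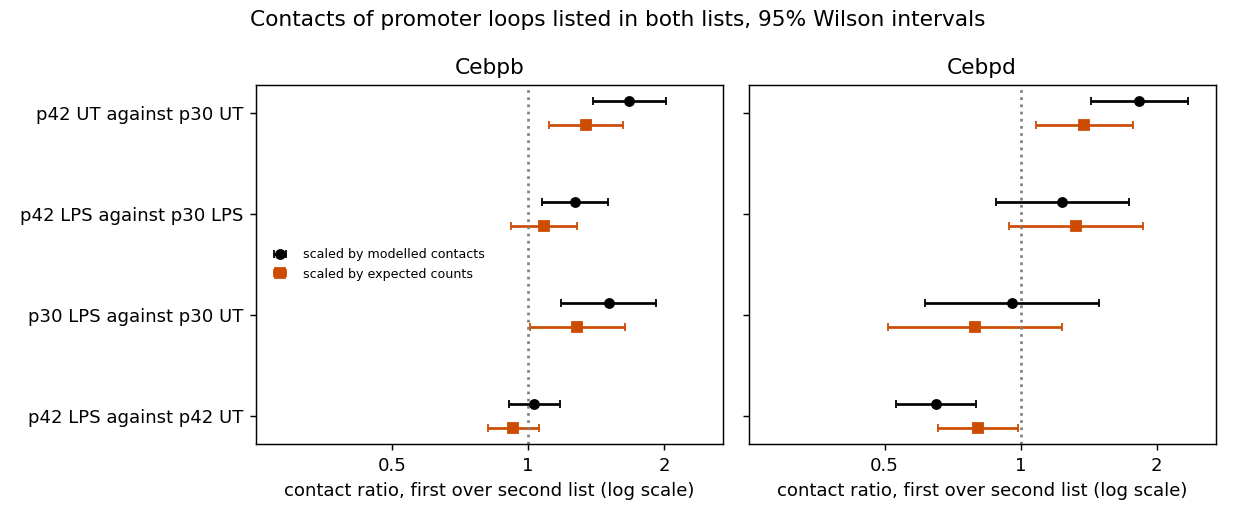
Contact ratio of the promoter loops in both lists of a comparison (horizontal axis, log scale, first list over second), for Cebpb and Cebpd, corrected for modelled contacts (black circles) or for expected counts (orange squares), with 95% Wilson intervals as bars. Untreated p42 over p30 is above 1 for both genes, and for Cebpd the ratio of p42 LPS to p42 UT is below 1.

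Loops in all 4 lists allow the same pairs to be followed throughout. The 8 Cebpb loops had 119 contacts untreated and 145 with LPS in p30 cells, and 224 untreated and 211 with LPS in p42 cells, which was 6.27, 8.07, 9.43 and 9.31 times the expected counts. The 3 Cebpd loops had 44, 34, 87 and 49 contacts, or 11.5, 9.16, 21.1 and 13.2 times the expected. Scaled by modelled contacts, the log2 effect of LPS in p42 minus that in p30 was -0.42 for Cebpb (95% interval -0.86 to 0.02) and -0.50 for Cebpd (-1.32 to 0.32), and both intervals include 0. Over all loops in both lists of a comparison, the median log2 ratio of LPS to untreated was also lower in p42, at -0.13, than in p30, at 0.22.

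The surroundings of both genes differed in kind. Around Cebpb, 95 nearby loops were listed untreated and 163 with LPS in p30 cells, and 250 untreated and 164 with LPS in p42 cells. With the promoter loops of the same window they came to 103, 177, 273 and 180, and to 101, 153, 172 and 180 in lists of equal size. Most nearby loops joined 2 bins downstream of the gene, with 65, 126, 205 and 129 such loops, while 24, 28, 23 and 21 joined 2 bins upstream and 6, 9, 22 and 14 spanned the start-site bin. The upstream loops thus varied little between lists. The bin 65 kb downstream had the most loops within the window in each list, promoter loops included, with 14, 25, 26 and 20, a number it shared with the bins at 5 and 25 kb in p42 LPS. Around Cebpd only 0, 1, 3 and 3 nearby loops were listed, or 1, 3, 10 and 6 with the promoter loops of the window.

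As deposited, the neighbours had fewer promoter loops than Cebpb or Cebpd beside them in each list. Upstream of Cebpb, Peds1, a desaturase of plasmalogen synthesis that shares a bin with Gm20431, had 4, 4, 6 and 6. Ube2v1, a cofactor of ubiquitin conjugation, had 6, 7, 9 and 4. Snai1, which encodes a zinc finger repressor, had 4, 2, 2 and 2. Mzt2, which lies upstream of Cebpd and encodes a protein of the gamma-tubulin complex, had 0, 0, 3 and 2, and Spidr had 0, 0, 1 and 2. The p42 UT loop of Spidr is the one to Cebpd.

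Within the C/EBP family, the difference between p42 UT and p30 UT was positive for all 6 genes in the lists as deposited, as it was for 79.0% of all genes with loops. In lists of equal size it was positive for 4, 0 for Cebpa and negative for Ddit3. Cebpe, the gene of C/EBPε of late granulocyte differentiation, had 5, 3, 28 and 15 loops (5, 1, 19 and 15 in lists of equal size), the widest range of the family under either count. Cebpa had 10, 5, 11 and 5 (10, 4, 10 and 5). Cebpg had 4, 1, 12 and 3 (4, 1, 6 and 3), and Ddit3, which encodes the stress factor CHOP, had 13, 12, 16 and 6 (13, 12, 12 and 6). For Cebpb, the 20 loops gained from p30 UT to p42 UT were reached by 0.143% of 10526 genes, and the 7 gained in lists of equal size by 1.12% of 9755. For Cebpd, 15 and 8 loops were gained, reached by 1.09% and 0.697%. Between p30 UT and p30 LPS, Cebpb and Cebpd were the 2 of 6 members with more loops under LPS, under either count, while 47.0% of all genes had more as deposited and 39.1% in lists of equal size. The gain of 8 loops of Cebpb was reached by 1.38% of genes and that of 4 in lists of equal size by 5.59%, and the gains of 2 and 1 of Cebpd by 26.2% and 39.1%.

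Of 33 genes of the signals to and the targets of C/EBPβ and C/EBPδ, 30 had a promoter loop in some list. As deposited, 26 had more loops in p42 UT than in p30 UT and 2 fewer, against 79.0% and 7.96% of all genes, and in lists of equal size 15 had more and 10 fewer, against 38.3% and 34.6%. Under LPS, p42 was above p30 for 11 genes and below it for 13 as deposited, against 20.5% and 51.0% of all genes, and the balance turned to 17 more and 10 fewer in lists of equal size, against 30.5% and 42.4%. In p30 cells, 22 had more loops with LPS and 4 fewer as deposited, against 47.0% and 24.5% of all genes, and 19 had more and 5 fewer in lists of equal size, against 39.1% and 34.0%. In p42 cells, 6 had more loops with LPS and 21 fewer as deposited, against 4.27% and 82.7% of all genes, and this balance, too, turned to 17 more and 4 fewer in lists of equal size, against 28.3% and 41.3%.

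Single genes of these signals spread widely. Nfkbia, the NF-kB inhibitor IκBα, had 9, 23, 26 and 20 loops (9, 19, 17 and 20 in lists of equal size). Under either count that made it the gene of the list with the largest gain with LPS in p30 and the largest excess of p42 over p30 untreated. Il6, the cytokine gene, had 2, 9, 6 and 12 (2, 4, 2 and 12), the largest gain with LPS in p42 under either count. Trib1, which encodes a pseudokinase that directs CEBPA to degradation, had 1, 2, 7 and 9 (1, 2, 3 and 9), the largest excess of p42 over p30 under LPS as deposited, which in lists of equal size was that of Il6, by 8 loops against 7. At the other end, Jak2, the cytokine receptor kinase, had 3, 6, 1 and 3 (3, 5, 1 and 3), Rela, the NF-kB subunit p65, 10, 15, 16 and 9 (9, 15, 8 and 9), and Creb1, a TGACG-binding factor, 2, 6, 14 and 5 (2, 3, 4 and 5). Rps6ka1, the kinase RSK1, had 5, 3, 5 and 2 (5, 3, 4 and 2). The loss of 9 loops of Creb1 with LPS in p42 was a gain of 1 in lists of equal size. Cxcl1, Mmp8 and Il6st had 0 loops in all 4 lists.

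The genes whose start-site coverage followed that of Cebpb most closely over the 4 lists were Gadd45a, a gene of the DNA damage response, Tec, a kinase of haematopoietic cells, and Ccl6, a myeloid chemokine. Their Euclidean distances to Cebpb were 0.0746, 0.0935 and 0.0946 on centred log2 values, over 6339 genes. For Cebpd they were Tatdn2 and Gm63648, which share a bin (0.0418), and Fbxo48 (0.0552). Cebpb and Cebpd lay 0.609 apart, and 2871 genes were closer to Cebpb than Cebpd was. With 4 values a gene, the order among near genes rests on small differences.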

How the data were processed

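The authors made H3K27ac HiChIP libraries in duplicates. Per the study's methods and the submitters' processing notes, reads were mapped to mm39 (the build GRCm39) with BWA 0.7.17, duplicates were removed with pairtools, and loops were called with FitHiChIP in bins of 5 kb. How the 2 replicates of a group were joined is not given in the sources used here. The authors deposited 1 list per group, with 26 columns and no header, so that the meaning of each column was inferred from the order of the caller's output and from relations between the values. The deposited contact count is the number of ligation products of a bin pair, and coverage is the deposited read count of a bin. The expected count deposited by the authors is the caller's estimate from distance and coverage, and the deposited fraction divides it by the modelled contacts. The deposited ratio sets the coverage of a bin against the mean of its class, a flag marks peak bins, and the authors' q-value (under 0.01) is a Benjamini-Hochberg adjusted p-value. Correction for coverage can remove part of a difference in contacts where H3K27ac differs, and pairs that were not significant are not listed.

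Start sites came from GENCODE. Loops in both lists of a comparison were tested with a two-sided exact binomial test against the share of modelled contacts, with Benjamini-Hochberg adjustment over all loops and a threshold of 0.05. Shares have 95% Wilson intervals. Contact ratios are the odds of a share over the odds of its null share. The scripts (Python 3.11.15, pandas 2.3.3, scipy 1.17.1) were tested on simulated data. The members, gene lists and rules were chosen with earlier results of these data known. Named are Cebpb, Cebpd, their family, coding genes starting within 150 kb or in a partner bin, the genes of the list of 33 with the largest and smallest difference, and 3 genes a member of like coverage. Alternatives were expected counts as null, loops in all 4 lists, loops of 20 kb or more, 10 or more contacts, lists of equal size, a q-value under 0.001, merged partner bins and 1 bin more on each side.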

Additional observations from a re-analysis of the deposited data

Results flagged for a closer look

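The number of Cebpb promoter loops went up with LPS in p30 and down in p42. It went from 13 to 21 in p30 and from 33 to 21 in p42, log2 changes of 0.69 and -0.65 which differ by -1.34. The changes in lists of equal size were 0.39 and 0.07, no longer opposite.

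The number of Cebpd promoter loops also went in opposite directions, from 5 to 7 in p30 and from 20 to 7 in p42, log2 changes of 0.49 and -1.51 which differ by -2.0. With lists of equal size they were 0.26 and -0.89, still opposite. Neither difference was tested, since there is 1 list per group, and p42 UT is the longest list.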

How the results depend on the processing

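The contact ratios of both genes kept their direction and their side of equality for loops in all 4 lists, where the ratios of LPS to untreated in p30 rest on the same loops as before. A minimum of 10 contacts removed no loop and so tested nothing, and one of 20 kb removed loops of Cebpd alone, with ratios of 1.74 for p42 UT to p30 UT and 0.679 for p42 LPS to p42 UT. With expected counts as null, the Cebpb ratio of p42 LPS to p30 LPS fell to 1.09 and its interval included 1, and the ratio of p42 LPS to p42 UT turned to 0.928, with an interval that includes 1 as before. The p42 UT share of promoter loops against p30 UT was 71.7% for Cebpb and 80.0% for Cebpd, with intervals above 50%. The longer list alone gives p42 UT 66.3% of all loops of both lists, a share that both intervals include, and loops to adjoining bins are not independent. With 1 bin more on each side the shares were 71.0% and 82.1%, and the Cebpd interval (67.3 to 91.0%) lies above 66.3%. With a q-value under 0.001 they were 74.3% and 85.0%, where list length gives 68.3%, which both intervals include. The p42 UT share was 60.6% and 72.2% in lists of equal size and 53.3% and 66.7% with adjoining partner bins merged, with intervals that include 50%. The p42 LPS share against p42 UT was 25.9% for Cebpd, where list length alone gives 33.2%, and 35.0% and 38.5% under the same alternatives, again with intervals that include 50%. For Cebpb it was 38.9%, and it turned to 51.2% in lists of equal size. Merging and equal sizes leave fewer loops. The loops called over all genes fell with expected counts to 240, 19, 25 and 39, and with a minimum of 20 kb, which tests fewer loops, to 970, 122, 178 and 232, in the order p42 against p30 untreated and under LPS, then LPS against untreated in p30 and p42. The cause of the other changes was not tested. No paired analysis was possible because each list joins both replicates of its group, and for the same reason no replicate could be left out. With 8 to 97 contacts a promoter loop, small differences in a single loop are not detectable.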
